A study of Mus musculus with 2 samples.

Results

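The receptor activity-modifying proteins *Ramp1*, *Ramp2* and *Ramp3*, the receptor genes *Calcrl* and *Calcr*, and the ligand genes *Adm*, *Calca* and *Calcb* were described in pituitary cells of newborn mice. These 8 genes, of 31055 in the count tables, were taken by their symbols, and each symbol matched 1 feature. The family was chosen by its members' names with the measured *Ramp1* level of stem cells in these libraries known, so that the levels by class are given as a description. The data are 2 single-cell libraries, 1 from male and 1 from female pups, each from 3 pituitaries pooled at postnatal day 3. All animals carried Sox9iresGFP/+, a green fluorescent protein expressed from the *Sox9* locus, and the GFP-positive cells were sorted, so that the libraries are enriched for cells of the *Sox9* lineage and are not a census of the pituitary. With 1 library per sex no difference between the sexes has a replicate check, and no test was made. Intervals of levels and shares are exact 95% intervals, the limits of a ratio are those of its 2 levels crossed, and all cover counting error only.

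RAMPs are small membrane proteins with a single pass through the membrane that travel to the cell surface with G protein-coupled receptors and set which ligand these bind. CALCRL, the calcitonin receptor-like receptor, makes the receptor for calcitonin gene-related peptide (CGRP) with RAMP1, and receptors for adrenomedullin with RAMP2 or RAMP3, while the calcitonin receptor CALCR makes amylin receptors with any of the RAMPs. *Calca* gives either calcitonin or alpha-CGRP by alternative splicing, *Calcb* gives beta-CGRP, and *Adm* gives adrenomedullin. CGRP and adrenomedullin are best known as vasodilators, and both receptors raise cyclic AMP in the cell.

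On mm10 with the GENCODE vM21 genes, *Ramp1* is at chr1:91179822-91225196 on the plus strand, *Ramp2* at chr11:101246028-101259546 on the plus strand and *Ramp3* at chr11:6658521-6677475 on the plus strand. *Calcrl* is at chr2:84330626-84425411 and *Calcr* at chr6:3685680-3764714, both on the minus strand. *Calca* (chr7:114631478-114636357, minus strand) and *Calcb* (chr7:114718643-114723365, plus strand) are neighbours on the chromosome that also holds *Adm* (chr7:110627661-110629820, plus strand). *Ramp2* overlaps *Vps25* on the same strand, so that reads in the overlap cannot be told apart. *Calca* has 7 annotated transcripts with different 3' ends, and counts per gene do not separate calcitonin from CGRP transcripts.

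The promoters of *Ramp1* and *Calca* are shown because these members were ordered in opposite ways along *Lef1*, the gene of a transcription factor of the Wnt pathway. Each is the 250 bases before the transcription start in RefSeq (GRCm38.p6), read 5' to 3' on the strand of the gene. They are chr1:91179572-91179821 for *Ramp1* and chr7:114636358-114636607 (minus strand) for *Calca*. In GENCODE the *Ramp1* window lies directly before transcript Ramp1-202. Transcripts Ramp1-201 and Ramp1-203 start further on, at 91180046 and 91180042, and the bases directly before these starts are not shown. Capitals mark short motifs, a SOX core (CATTGT or CTTTGT), a TCF/LEF core (CTTTGA) and a cyclic AMP response half-site (TGACG), each searched on both strands, and the motif list was chosen after these data were seen.
Ramp1 promoter: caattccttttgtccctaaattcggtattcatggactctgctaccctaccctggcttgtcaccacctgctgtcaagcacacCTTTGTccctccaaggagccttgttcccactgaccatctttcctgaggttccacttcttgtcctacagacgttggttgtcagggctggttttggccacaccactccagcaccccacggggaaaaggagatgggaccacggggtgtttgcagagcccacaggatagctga
Calca promoter: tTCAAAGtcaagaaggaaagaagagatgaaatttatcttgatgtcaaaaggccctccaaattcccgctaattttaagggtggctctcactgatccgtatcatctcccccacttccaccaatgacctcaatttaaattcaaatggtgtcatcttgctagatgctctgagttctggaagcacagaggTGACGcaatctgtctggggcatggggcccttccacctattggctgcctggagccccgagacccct
The *Ramp1* window held 1 SOX core, CTTTGT, at -169 and no TCF/LEF core. The *Calca* window held 1 TCF/LEF core, on the other strand as TCAAAG, at -249, and 1 TGACG at -65. Of all 32851 promoters searched in the same way, 25.2% held a SOX core, 13.8% a TCF/LEF core and 17.8% a TGACG, so that each of these matches is common. Of the 8 members, 6 had a promoter in the table. The *Adm* window held none of these motifs, and none of the hypoxia response core ACGTG, which 16.6% of promoters held.

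After filtering, 10410 male and 5711 female cells remained, with a median of 8902.5 and 9789 unique molecular identifiers (UMIs) per cell. The male library had more shallow cells, as 34.0% of its cells had under 2000 genes against 4.69% in the female library. The 2 libraries share 19 barcodes, and taking these cells out moved none of the values that were recomputed beyond its interval. Cells were put in classes by raw UMIs of a few marker genes. Stem cells (SCs) had 2 or more *Sox2* and no *Lef1* UMIs (3369 male and 3455 female cells), and differentiating cells had 2 or more *Lef1* UMIs (867 and 594). Gonadotroph, POU1F1 lineage and POMC lineage cells, gated on *Cga*, *Pou1f1* or *Pomc*, together make the endocrine cells (1683 and 462), and mesenchymal cells had 10 or more UMIs of collagen and matrix genes (590 and 298). The level of a gene is its summed UMIs in a class over all UMIs of that class, scaled to 1000000 (CPM).

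Markers that the gates did not use were checked. *Sox9* was at 103 and 111 CPM in male and female SCs and *Epcam* at 2258 and 2179 CPM, *Chga*, which encodes a granule protein, was at 789 and 810 CPM in endocrine cells, and *Tcf21* was at 720 and 588 CPM in mesenchymal cells. Differentiating cells had *Chga* at 159 and 144 CPM, between SCs and endocrine cells. The gate of 2 or more *Nkx2-1* and *Rax* UMIs, meant for pituicytes, took 21 male and 9 female cells with *Epcam* at 1026 and 1493 CPM. Another epithelial gene, *Krt8*, was at 42.7 and 131 CPM in them, against 240 and 344 CPM in SCs and 91.4 and 87.4 CPM in endocrine cells. Their cell type was not settled, and they are called by their gate here. Endothelial cells were almost absent from the sort, with 1 male and 2 female cells. A further 3664 male and 847 female cells were in no gate.

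*Ramp1*, the CGRP partner, was at 88.0 CPM (interval 85.2 to 90.9) in male and 82.1 CPM (79.1 to 85.1) in female SCs. SCs held 69.1% of its 5421 male and 77.6% of its 3844 female UMIs. They were 32.4% of male and 60.5% of female cells, so that these shares also follow the number of SCs in each library. Differentiating cells had 18.5 and 26.0 CPM, endocrine cells 20.1 and 16.8 CPM and mesenchymal cells 5.66 and 2.81 CPM. The SC level was 4.76 and 3.16 times that of differentiating cells, 4.39 and 4.88 times that of endocrine cells, and 15.6 and 29.2 times that of mesenchymal cells. The intervals of SCs and of these 3 classes did not overlap in either library, which is a description only, since *Ramp1* was picked with its SC level known.

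In cells thinned to 5000 UMIs each, so that depth is equal, 33.3% (31.6% to 35.1%) of male and 29.5% (28.0% to 31.1%) of female SCs had a *Ramp1* UMI. Without thinning these shares were 49.4% and 45.3%, at median depths of 10035 and 9282 UMIs. Mesenchymal cells, a class with a low level, had 2.14% and 1.87% after thinning, at median depths of 7639.5 and 7594.5 UMIs. A cell without a *Ramp1* UMI at this depth may still hold the transcript.

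Among endocrine cells, *Ramp1* was at 27.0 and 23.7 CPM in the POU1F1 lineage, at 11.4 and 9.36 CPM in the POMC lineage, and at 14.9 CPM in male gonadotrophs against 1 UMI in 40 female gonadotrophs (1.62 CPM, interval 0.0410 to 9.02). The melanotroph part of the POMC lineage had 5.02 and 3.74 CPM. In the male POU1F1 lineage, cells with 0, 1, 2 to 3 and 4 or more *Sox2* UMIs had *Ramp1* at 5.92, 17.4, 37.5 and 52.1 CPM. The female cells had 20.5, 22.4, 14.6 and 35.2 CPM in the same order, so that the male order was not seen in the female library. The somatotroph part, with 20 or more *Gh* UMIs, had 61.2 CPM in 71 male and 12.4 CPM in 35 female cells, and its male cells had a median depth of 23620 UMIs.

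**Figure D1:**
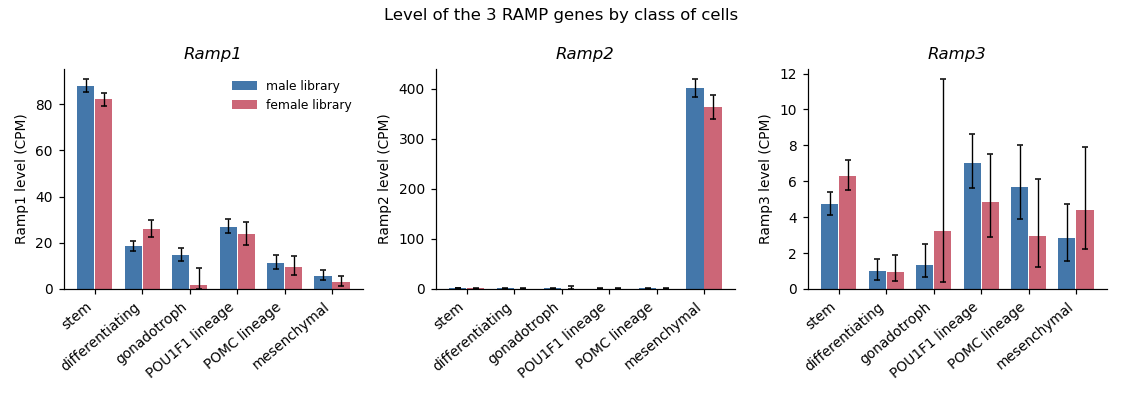
Levels of the 3 RAMP genes in CPM (y axis, linear, a separate scale per gene) in each class of cells (x axis) of the male and the female library. Bars are the level of a class, and error bars are exact 95% Poisson intervals. Of the classes drawn, Ramp1 is highest in SCs at 88.0 and 82.1 CPM, Ramp2 in mesenchymal cells at 401 and 363 CPM, and Ramp3 is at 7.002 CPM or less in all of them.

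*Ramp1* differed between parts of the SCs. SCs with 2 or more *Aldh1a2* UMIs, the gene of an enzyme of retinoic acid synthesis, and no *Ednrb* UMI had *Ramp1* at 118 and 123 CPM. SCs with 2 or more UMIs of *Ednrb*, the endothelin receptor B gene, had 57.6 and 55.3 CPM. The ratio was 2.04 (1.81 to 2.30) in male and 2.22 (1.96 to 2.52) in female cells. The intervals of the ratios overlap between the libraries, and the median depth of the first set was 10274 and 9313 UMIs against 12514 and 9503.5 in the second.

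The same order was seen in steps, which were set after the data were seen. With 0, 1, 2 to 3 and 4 or more *Ednrb* UMIs per SC, *Ramp1* was at 103, 91.4, 68.9 and 39.99 CPM in male and 106, 86.8, 67.9 and 40.9 CPM in female cells. Each step is lower than the one before in both libraries. With 0, 1, 2 to 3 and 4 or more *Aldh1a2* UMIs it was at 31.8, 66.8, 73.1 and 97.9 CPM in male and 44.9, 66.2, 80.3 and 94.2 CPM in female SCs. The steps between 1 and 2 to 3 *Aldh1a2* UMIs have overlapping intervals in both libraries. SCs with neither gene had *Ramp1* at 28.3 and 45.7 CPM. Cycling SCs, with 2 or more of 8 proliferation markers, had 65.6 and 55.9 CPM against 106 and 92.3 CPM in the other SCs.

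**Figure D2:**
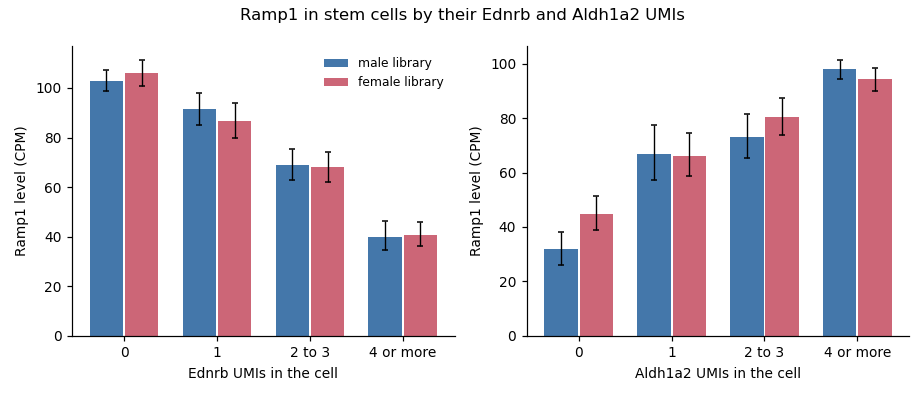
Ramp1 level in CPM (y axis) in SCs by the number of Ednrb UMIs (left) or Aldh1a2 UMIs (right) in the cell (x axis), for each library, with exact 95% Poisson intervals. Ramp1 goes from 103 and 106 CPM without Ednrb to 39.99 and 40.9 CPM at 4 or more Ednrb UMIs, and from 31.8 and 44.9 CPM without Aldh1a2 to 97.9 and 94.2 CPM.

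Other genes differed between SCs with 2 or more *Ramp1* UMIs (929 male and 741 female) and SCs with none (1704 and 1890). The first were deeper, with medians of 13169 and 10116 UMIs against 8687.5 and 8967. *Mgll*, the gene of a lipase, was at 137 against 69.2 CPM in male and 94.6 against 42.7 CPM in female cells, and *Gpha2*, a glycoprotein hormone subunit, at 227 against 118 and 133 against 49.7 CPM. The growth hormone gene *Gh*, a marker of somatotrophs, was at 465 against 190 CPM in male and 261 against 136 CPM in female cells, and the part of hormone RNA from other cells in these differences was not tested. On the other side, *Smoc2* was at 4.72 against 61.1 CPM in male and 2.30 against 37.7 CPM in female cells. *Chga*, the gene of a secretory granule protein, was at 6.69 against 55.7 CPM in male and 3.07 against 54.0 CPM in female cells.

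Over the 13 points of a class in a library with at least 30 cells, the genes whose levels were most like those of *Ramp1* were *Slc9a3r1* (Pearson's r of 0.973 on log2 of CPM + 1), *Hmga2* (0.964), *Pcp4l1* (0.955), *Apln* (0.952) and *Col22a1* (0.948). The points share libraries and depth, and 8966 genes were compared. *Slc9a3r1*, the gene of a scaffold protein of the cell membrane, had 232 and 180 CPM in SCs and 10.5 and 5.63 CPM in mesenchymal cells. *Apln*, the gene of the peptide apelin, had 34.8 and 25.3 CPM in SCs and 0.606 and 0.804 CPM in mesenchymal cells.

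*Ramp2*, an adrenomedullin partner, was at 401 CPM (384 to 419) in male and 363 CPM (339 to 387) in female mesenchymal cells. After thinning, 76.3% and 69.8% of these cells had a UMI, and unthinned 79.3% and 78.9%. Mesenchymal cells held 74.8% and 82.6% of all *Ramp2* UMIs and were 5.67% and 5.22% of the cells. SCs were at 1.504 and 1.07 CPM, with a UMI in 0.717% and 0.418% of thinned cells, and endocrine cells at 1.02 and 0.145 CPM. Male pericytes (55 cells) had 248 CPM (196 to 308), and the 3 endothelial cells had 1671 CPM in male and 1869 CPM in female cells. *Ramp2* was thus a gene of the stromal cells of the sort, and no class of hormone or stem cells came near their level.

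Within mesenchymal cells, those with 2 or more *Ramp2* UMIs (378 male and 160 female) were set against those with none (122 and 63), with median depths of 8608 and 8905 against 5002.5 and 6734 UMIs. The gap junction gene *Gja1* was at 129 against 21.3 CPM in male and 135 against 12.1 CPM in female cells, and *Cdh5*, the cadherin of endothelial junctions, at 28.0 against 4.91 and 55.3 against 7.27 CPM. The epithelial keratin gene *Krt18* was at 13.7 against 60.5 CPM in male and 3.33 against 33.9 CPM in female cells and male *Epcam* at 38.8 against 324 CPM, so that epithelial RNA moved with the absence of *Ramp2*, and its part in the result was not tested. Mesenchymal cells with 2 or more UMIs of *Apod* or *Mfap5*, markers of fibroblasts, had *Ramp2* at 435 and 409 CPM.

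*Ramp3*, the other adrenomedullin partner, was low in the large classes (SCs, differentiating, endocrine and mesenchymal cells), while the 2 female endothelial cells held 3 UMIs. SCs had 4.72 CPM (4.09 to 5.42) in male and 6.30 CPM (5.51 to 7.17) in female cells, and differentiating cells had 0.982 and 0.967 CPM. The POU1F1 lineage had 7.002 and 4.83 CPM, the POMC lineage 5.69 and 2.98 CPM and mesenchymal cells 2.83 and 4.42 CPM. In SCs the order along *Ednrb* was the opposite of that of *Ramp1*. With 0, 1, 2 to 3 and 4 or more *Ednrb* UMIs, *Ramp3* was at 3.45, 5.47, 5.63 and 8.04 CPM in male and 3.67, 6.32, 7.09 and 11.2 CPM in female SCs. The end points of this order do not overlap in their intervals, and the middle steps do. The *Ednrb*-rich SCs had 6.57 and 8.99 CPM against 3.69 and 3.996 CPM in the *Aldh1a2*-rich SCs, a ratio of 1.78 and 2.25.

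*Calcrl*, the receptor that works with the RAMPs, was highest, among the large classes, in mesenchymal cells, at 15.4 CPM (12.1 to 19.2) in male and 16.9 CPM (12.2 to 22.8) in female cells. A UMI was in 5.56% and 6.72% of thinned mesenchymal cells. The 55 male pericytes had 7 UMIs (21.7 CPM, 8.71 to 44.6). SCs had 2.28 CPM (1.85 to 2.78) and 3.14 CPM (2.59 to 3.77), and a UMI in 0.888% and 1.43% of thinned cells. Differentiating cells had 3 male UMIs and 1 female UMI in all, 0.227 and 0.121 CPM, with a UMI in 0 of 849 male and 1 of 591 female thinned cells, where a count of 0 allows a share of up to 0.353%. The mesenchymal level was 6.74 and 5.38 times the SC level. The SC level was 10.1 (2.79 to 59.5) and 26.0 (3.84 to 1231) times that of differentiating cells, and the wide intervals come from those 4 UMIs. The SC share lies above that of the differentiating cells, which are deeper (medians of 14182 and 12874.5 UMIs). The POMC lineage had 3.38 and 1.70 CPM and the POU1F1 lineage 1.13 and 1.53 CPM.

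The genes most like *Calcrl* over the same 13 points were *Rcn3* (r of 0.986), *Spry4* (0.981), *Sdc2* (0.976), *Lgals1* (0.974) and *Gm42418* (0.968). *Lgals1*, which encodes a galectin, was at 1183 and 1233 CPM in mesenchymal cells and at 76.7 and 81.0 CPM in SCs, and *Sdc2*, a heparan sulphate proteoglycan gene, at 177 and 207 CPM against 47.5 and 63.6 CPM.

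Whether SCs with *Ramp1* also carry the partner receptor was counted per cell after thinning, in a second random draw. Of male SCs with a *Ramp1* UMI, 8 of 982 had a *Calcrl* UMI (0.815%, interval 0.352% to 1.599%), against 18 of 1945 without one (0.925%, 0.549% to 1.46%). Of female SCs, 11 of 990 with *Ramp1* (1.11%, 0.556% to 1.98%) and 29 of 2362 without it (1.23%, 0.824% to 1.76%) had a *Calcrl* UMI. Averaged over every possible draw the shares were 0.981% against 1.10% in male and 1.46% against 1.51% in female cells. SCs with and without *Ramp1* did not differ in *Calcrl* beyond counting error at this depth. Without thinning the shares were 51 of 1665 (3.06%) against 32 of 1704 (1.88%) in male and 50 of 1565 (3.19%) against 53 of 1890 (2.80%) in female cells, a comparison in which cells with a *Ramp1* UMI are also deeper. Both genes were thus found in the same SCs, but rarely, and at these depths most cells with *Ramp1* had no *Calcrl* UMI.

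*Calcr*, the calcitonin receptor, was all but missing, with 6 male and 3 female UMIs in the whole data. The POU1F1 lineage held 4 male UMIs in 3 cells and 1 female UMI. No thinned male SC with *Ramp1* of 982 had a *Calcr* UMI, which allows a share of up to 0.305%, and 1 female cell of 990 did. Of the male endocrine cells, 3 of 109 with a *Ramp3* UMI had *Calcr* (2.75%) against 1 of 1574 without, in cells that were not thinned. Of the female endocrine cells it was 0 of 23 with *Ramp3*, an upper limit by exact interval of 14.8%, and 1 of 439 without. After thinning, no endocrine cell with *Ramp3* held *Calcr*, of 30 male and 8 female cells. In mesenchymal cells the count of *Calcr* was 0 in both libraries, an upper limit of 0.606 and 1.21 CPM.

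In mesenchymal cells, *Calcrl* was found beside *Ramp2*. Of thinned male cells with *Ramp2*, 27 of 358 (7.54%, 5.03% to 10.8%) had a *Calcrl* UMI, against 1 of 110 (0.909%, 0.0230% to 4.96%) without it. In the female library this was 17 of 181 (9.39%) against 5 of 87 (5.75%), with overlapping intervals. The cells without *Ramp2* also had more *Krt18* RNA, as given above.

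RAMPs also bind other receptors, and 13 of these were listed. The list is not sorted by which RAMP each receptor binds, so that a receptor found beside *Ramp1* is not read as a partner of RAMP1. At least 1 of them was found in 149 of 982 male SCs with *Ramp1* (15.2%) against 13.8% of those without, and in 175 of 990 female SCs (17.7%) against 15.7%. *Gper1*, a receptor for oestrogen at the membrane, made up most of this, with a UMI in 9.57% (7.80% to 11.6%) of male and 10.9% (9.04% to 13.02%) of female SCs with *Ramp1*, against 6.94% (5.85% to 8.16%) and 8.98% (7.85% to 10.2%) without. Both pairs of intervals overlap. The parathyroid hormone receptor gene *Pth1r* was in 2.75% and 3.94%, the PACAP receptor gene *Adcyap1r1* in 1.93% and 1.92%, and the VIP receptor gene *Vipr2* in 0.916% and 1.21% of SCs with *Ramp1*. As a class that lacks it, mesenchymal cells had *Gper1* at 1.42 and 0.402 CPM against 17.8 and 18.8 CPM in SCs.

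**Figure D3:**
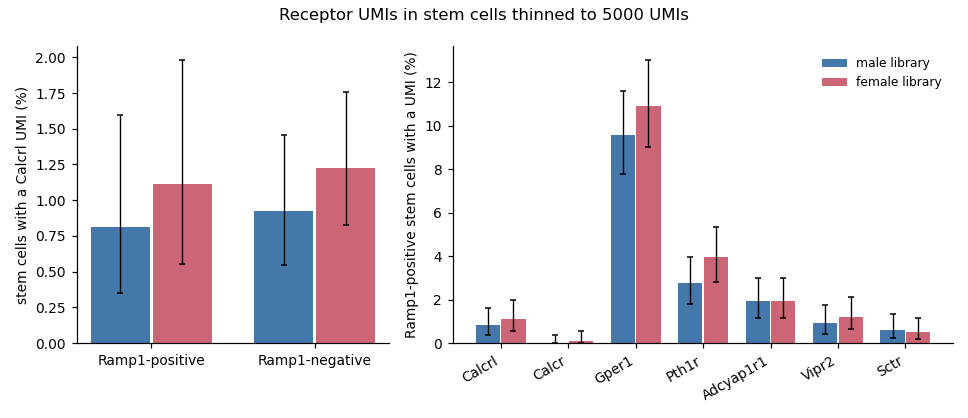
Left, percent of thinned SCs with a Calcrl UMI (y axis) among SCs with and without a Ramp1 UMI. Right, percent of SCs with Ramp1 that have a UMI of Calcrl, Calcr or 5 other receptors known to bind RAMPs, not sorted by which RAMP they bind. Bars are 1 library each and error bars exact 95% binomial intervals; Calcrl is at 0.815% and 1.11% with Ramp1 and at 0.925% and 1.23% without, and Gper1 reaches 9.57% and 10.9%.

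Among the ligands, *Calca* was at its highest level in differentiating cells among the large classes, at 35.1 CPM (32.0 to 38.5) in male and 31.8 CPM (28.1 to 35.9) in female cells. A UMI was in 14.6% and 12.5% of thinned cells. The 21 male cells gated on *Nkx2-1* and *Rax* had 10 UMIs (35.6 CPM, 17.1 to 65.5). SCs had 5.12 CPM (4.47 to 5.85) and 3.14 CPM (2.59 to 3.77), so that the level of differentiating cells was 6.85 and 10.1 times as high. Endocrine cells had 6.30 and 5.80 CPM, with 8.77 and 6.36 CPM in the POU1F1 lineage, 4.63 and 8.09 CPM in gonadotrophs and 3.02 and 4.25 CPM in the POMC lineage. Mesenchymal cells had 2.02 and 1.21 CPM, and a UMI in 0.641% and 0.373% of thinned cells. Among the large classes *Calca* was thus highest in the cells gated on *Lef1*, and lower both in SCs and in endocrine cells.

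*Calca* and *Ramp1* ran in opposite directions along *Lef1*. In cells with 2 or more *Sox2* UMIs and 0, 1, 2 to 3 and 4 or more *Lef1* UMIs, *Calca* was at 5.12, 24.0, 35.7 and 35.0 CPM in male and 3.14, 26.7, 28.4 and 39.2 CPM in female cells. *Ramp1* was at 88.0, 52.1, 23.8 and 15.4 CPM and at 82.1, 50.7, 35.9 and 11.0 CPM in the same cells. Most of the difference in *Calca* lay between cells with 0 and 1 *Lef1* UMI, while *Ramp1* was lower at each step.

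**Figure D4:**
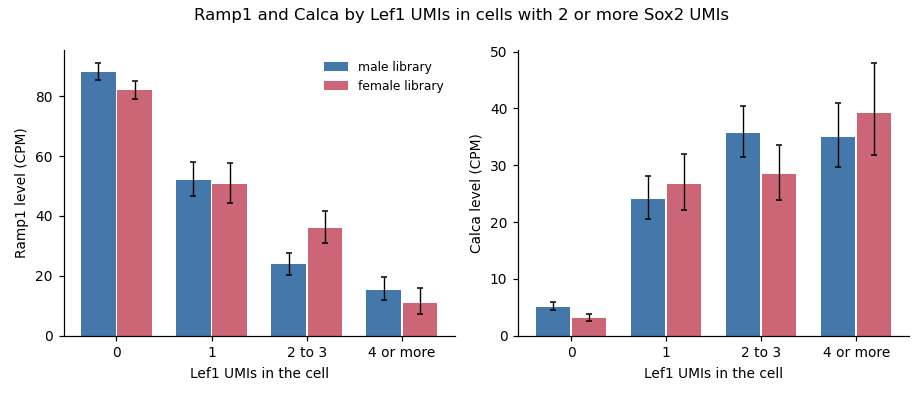
Ramp1 (left) and Calca (right) level in CPM (y axis) by the number of Lef1 UMIs (x axis) in cells with 2 or more Sox2 UMIs and no endocrine gate, per library, with exact 95% Poisson intervals. Ramp1 goes from 88.0 and 82.1 CPM to 15.4 and 11.0 CPM, and Calca from 5.12 and 3.14 CPM to 35.0 and 39.2 CPM.

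The differentiating cells were split by other genes, chosen after the data were seen. With 2 or more *Smoc2* UMIs *Calca* was at 38.9 and 38.3 CPM against 14.9 and 10.9 CPM with none, while *Ramp1* was at 8.66 and 10.3 against 73.6 and 94.2 CPM. With 2 or more UMIs of *Pou3f4*, a POU domain factor gene, *Calca* was at 45.9 and 45.2 CPM against 27.5 and 23.4 CPM with none, and *Ramp1* at 7.23 and 6.99 against 24.5 and 40.9 CPM. Differentiating cells with *Calca* (280 male and 163 female) had *Ramp1* at 9.47 and 6.61 CPM against 23.1 and 33.3 CPM in those without (587 and 431), at like depths (medians of 14226.5 and 13016 against 14163 and 12859 UMIs). They had *Chga* at 223 and 205 CPM against 127 and 121 CPM, and *Necab2*, a calcium-binding protein gene, at 35.9 and 27.8 against 19.0 and 13.3 CPM.

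In SCs *Calca* was highest among the cells without *Aldh1a2*. SCs with neither an *Ednrb* nor an *Aldh1a2* UMI had *Calca* at 34.5 CPM (27.7 to 42.4) in male and 16.9 CPM (12.1 to 23.0) in female cells, against 2.44 and 1.77 CPM in the *Aldh1a2*-rich and 2.22 and 2.13 CPM in the *Ednrb*-rich SCs. With 0, 1, 2 to 3 and 4 or more *Aldh1a2* UMIs it was at 29.4, 7.82, 5.08 and 2.31 CPM in male and 10.8, 4.51, 2.29 and 1.41 CPM in female SCs, lower at each step, although the intervals of neighbouring steps above 0 overlap in part.

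*Calcb* had 2 UMIs, both male, 1 in the POU1F1 lineage and 1 in a cell of mixed gates. The female count was 0.

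*Adm* was at 8.69 CPM (6.29 to 11.7) in male and 3.62 CPM (1.65 to 6.87) in female mesenchymal cells, from 43 and 9 UMIs. SCs had 0.776 and 0.633 CPM, differentiating cells 1.28 and 1.45 CPM, and endocrine cells 0.394 CPM in male and no UMI in female cells, an upper limit of 0.435 CPM by 3 counts. The highest level was in the male cells gated on *Nkx2-1* and *Rax*, where 25 UMIs lay in 6 of 21 cells (89.0 CPM, 57.6 to 131). The 9 female cells of that gate had none, an upper limit of 28.2 CPM. The male mesenchymal level was 2.40 times the female level (0.916 to 7.08), an interval that holds 1.

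**Figure D5:**
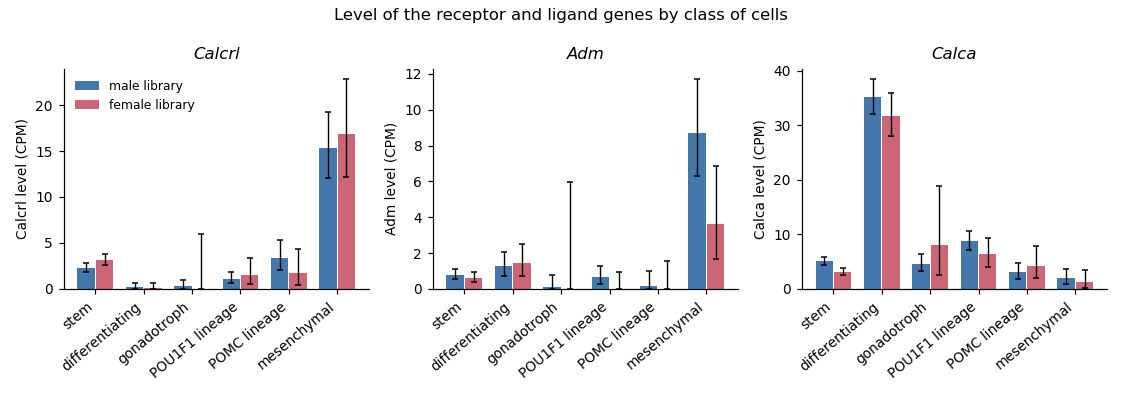
Levels of Calcrl, Adm and Calca in CPM (y axis, a separate scale per gene) in each class of cells (x axis) of the male and the female library, with exact 95% Poisson intervals. Of the classes drawn, Calcrl is highest in mesenchymal cells at 15.4 and 16.9 CPM, Adm in mesenchymal cells at 8.69 and 3.62 CPM, and Calca in differentiating cells at 35.1 and 31.8 CPM.

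Of the members, only *Ramp1* had 20 CPM or more in SCs of both libraries. It was 1.07 times (1.002 to 1.15) as high in male as in female SCs and so did not reach the fold of 1.5 that 1.09% of the 6248 genes passed towards the male and 1.23% towards the female library. *Calca* was 1.63 times (1.19 to 2.26) as high in male as in female SCs and *Ramp3* 0.750 times (0.571 to 0.984), neither with a replicate check.

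The members were set against all genes with 20 CPM or more in a class, called where they differed at least 2-fold in the same direction in both libraries. *Ramp1* was called higher in SCs than in differentiating cells, as were 10.0% of 6355 genes, and *Calca* lower, as were 4.03%. Against endocrine cells *Ramp1* was 1 of the 9.77% of 6570 genes higher in SCs, and no member was among the 6.50% higher in endocrine cells. Against mesenchymal cells *Ramp1* was among the 11.0% of 6839 genes higher in SCs and *Ramp2* among the 12.1% higher in mesenchymal cells. Between the parts of the SCs few genes were called, 0.180% of 6114 higher in *Aldh1a2*-rich and 0.622% higher in *Ednrb*-rich SCs, and *Ramp1* was 1 of the 11 genes of the first kind. The other members were under 20 CPM in these comparisons and were not counted. *Calca* and *Ramp2* were under 20 CPM in SCs and passed the filter only through the class where they are high. Against mesenchymal cells *Ramp1* passed only through SCs, and nothing is read from these calls. The medians of the members past the filter were -0.43, 2.15, -1.65 and 1.08 on the log2 scale in these 4 comparisons, over 2, 1, 2 and 1 genes, against -0.04, 0.01, 0.04 and -0.05 over all genes, and nothing is read from them since *Ramp1* was picked for its level.

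The rest of the pathway was followed in lists. Of 7 other ligands, binding partners and enzymes, 3 passed the filter between SCs and differentiating cells, 3 between SCs and endocrine cells and 4 between SCs and mesenchymal cells. *Mme*, the gene of neprilysin, which breaks down small peptides such as CGRP, was higher in SCs in each of these comparisons. Of all genes tested, 10.0%, 9.77% and 11.0% were higher in SCs in the same order. *Mme* was at 21.7 and 46.1 CPM in SCs, 1.66 and 3.75 CPM in differentiating, 10.4 and 13.2 CPM in endocrine and 9.70 and 8.04 CPM in mesenchymal cells. Within SCs it was lower in the *Aldh1a2*-rich (8.92 and 17.9 CPM) than in the *Ednrb*-rich cells (48.6 and 81.4 CPM), the opposite of *Ramp1*. *Pam*, the gene of the enzyme that amidates peptides including CGRP and adrenomedullin, was higher in endocrine cells (138 and 134 CPM) and in mesenchymal cells (91.4 and 112 CPM) than in SCs (34.0 and 41.8 CPM). *Ackr3*, a decoy receptor that also binds adrenomedullin, was higher in mesenchymal cells (47.5 and 67.9 CPM) than in SCs (16.5 and 18.2 CPM). Of all genes tested, 6.50% were higher in endocrine and 12.1% in mesenchymal cells than in SCs. The amylin gene *Iapp* had no UMI in SCs (upper limits of 0.0705 and 0.0825 CPM), and *Adm2*, which encodes another peptide of the family, was at 2.05 and 0.290 CPM in endocrine cells.

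Of the 13 other receptors known to bind RAMPs, none reached the filter between SCs and differentiating or endocrine cells in both libraries, and 1 did between SCs and mesenchymal cells. This was *Pth1r*, higher in mesenchymal cells, as were 12.1% of all genes tested, at 38.6 and 37.0 CPM against 6.35 and 7.87 CPM. Of 5 genes of cyclic AMP signalling, all passed the filter between SCs and differentiating cells and none was called. Of all genes tested there, 10.0% were called higher in SCs and 4.03% lower. *Crem*, a transcription factor gene of that pathway, was higher in endocrine cells (39.3 and 42.2 CPM) than in SCs (14.5 and 16.5 CPM), as were 6.50% of all genes tested. *Gnas*, the gene of the stimulatory G protein, was higher in SCs (8164 and 7638 CPM) than in mesenchymal cells (3304 and 2859 CPM), as were 11.0%. *Mme*, *Ackr3*, *Pth1r* and *Crem* were under 20 CPM in the lower class. They passed the filter only through the class where they are high, and nothing is read from these calls.

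Since *Adm* is known as a target of low oxygen, 8 other genes of that response were listed. Of 3 that passed the filter between SCs and mesenchymal cells, 2 were higher in mesenchymal cells, as were 12.1% of all genes tested. These were *Vegfa* at 36.2 and 32.6 against 9.73 and 6.79 CPM and *Egln3* at 49.3 and 51.5 against 4.09 and 3.604 CPM. Of 3 between SCs and endocrine cells, 2 were higher in endocrine cells, as were 6.50% of all genes tested. These were *Bnip3* at 60.3 and 62.0 against 26.8 and 27.8 CPM and *Ankrd37* at 42.2 and 34.8 against 15.8 and 12.4 CPM. *Adm* itself was at 0.394 CPM in male endocrine cells and at 0 UMIs in female ones. The median log2 ratio of SCs over the other class, over the genes past the filter, was -1.95 for mesenchymal and -1.13 for endocrine cells, against 0.043 and 0.0086 over all genes tested. A gene passes the filter with 20 CPM in either class, and *Vegfa*, *Egln3* and *Ankrd37* were under 20 CPM in SCs. They passed only through the class where they are high, so that nothing is read from these counts and medians.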

How the data were processed

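Single-cell libraries of sorted Sox9iresGFP/+ pituitary cells (3' chemistry) were counted by the authors with Cell Ranger 3.0.2 and STAR on mm10 with the eGFP sequence added. The values deposited by the authors are raw UMI counts per gene and barcode, not normalized and not filtered by the study's filters. The submitters' processing notes also name R 3.6.0 and Seurat 3 and 4. Barcodes with fewer than 50 genes or a mitochondrial share over 3 SD above the library mean (20.4% for male and 26.1% for female cells) were left out, from 10569 and 5796 barcodes. The methods name no doublet step and none was applied. The symbols of 71 features are not unique, and none of these is a member.

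Classes were gated on raw UMIs: SCs on *Sox2* at 2 or more and *Lef1* at 0; differentiating cells on *Lef1* at 2 or more; gonadotrophs on *Cga* at 20 or more with *Nr5a1*, *Gnrhr*, *Lhb* or *Fshb*; the POU1F1 lineage on *Pou1f1* at 2 or more; the POMC lineage on *Pomc* at 50 or more; mesenchymal cells on 10 or more UMIs of *Dcn*, *Lum*, *Col1a1*, *Col1a2*, *Col3a1* and *Pdgfra* with 3 or more seen. Endocrine gates came first, and cells in conflicting gates were left out as mixed. Levels are summed UMIs of a gene over those of the class times 1000000 (CPM), with Poisson intervals (exact). Intervals of shares are Clopper-Pearson (exact), and the limits of a ratio are those of the 2 levels crossed. For shares, each cell was thinned to 5000 UMIs (seed 1; receptor shares by RAMP from a second draw), which left out 3627 male and 287 female cells. A count of 0 is given with the limit that 3 counts set. The members, gene lists and gates were chosen with earlier results of these data known, as was the rule for other named genes: the pathway lists, and the 5 genes most correlated with *Ramp1* and with *Calcrl*. Genes named beside a split of cells by a member come from the largest differences seen in both libraries with 5 CPM added to each level, among genes with 20 CPM or more. Not every gene this gives is reported here. The code was tested on simulated data. Tools were Python 3.11.15, numpy 2.4.6, scipy 1.17.1, pandas 2.3.3, scanpy 1.11.5 (for Scrublet) and matplotlib 3.10.9. Alternatives changed the filters, gates, thinning, doublets and shared barcodes.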

Additional observations from a re-analysis of the deposited data

Results flagged for a closer look

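The cells in no gate took part in no comparison between classes, although some of them form the step of 1 UMI in the order along *Lef1*, and they held signal of 2 members well above the limit of 3 counts. *Ramp1* had 48.3 CPM over 3664 male cells and 62.6 CPM over 847 female cells of this kind. *Calca* was at 16.6 CPM (male) and 18.7 CPM (female). Those of that step, 485 male and 352 female cells with 2 or more *Sox2* UMIs, had *Ramp1* at 52.1 and 50.7 CPM and *Calca* at 24.0 and 26.7 CPM. The 2902 male and 434 female cells without *Lef1* had median depths of 1274.5 and 6753 UMIs, *Ramp1* at 51.3 and 86.5 CPM and *Calca* at 9.11 and 5.68 CPM.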

How the results depend on the processing

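Of 196 values recomputed under 12 settings, 183 stayed within their interval or count limit, 13 moved and 0 changed direction. Only the ratios of *Ramp1*, between parts of the SCs and between the sexes, could change direction, as levels, shares and counts have none. The share of SCs with a *Ramp1* UMI was 18.4% and 17.7% (male and female) when thinned to 2500 UMIs, 50.1% and 43.3% at 10000 UMIs and 49.4% and 45.3% without thinning. The *Calcrl* share of SCs with *Ramp1* was 0.339% and 0.502% at 2500 UMIs, 2.29% and 2.87% at 10000 UMIs and 3.06% and 3.19% without thinning. These shares follow the depth by construction. The *Calca* level of female differentiating cells was 37.1 CPM with *Lef1* at 3 or more, a gate chosen after the data were seen, as were the alternatives for levels in differentiating and mesenchymal cells, for *Calcrl* in SCs, for the ratio of *Ramp1* between parts of the SCs and for the counts over all genes. Removing the cells with the highest Scrublet scores (867 male and 261 female) or the shared barcodes moved none of the values. The counts of genes called between classes or sexes stayed within 1.5 times under every alternative run. No paired analysis was possible because each sex has 1 library. Depth limits the values of *Calcrl*, *Ramp3*, *Adm*, *Calcr* and *Calcb*, which rest on few UMIs per cell.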
